A study of Mus musculus with 2 samples.

Results

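The Hedgehog pathway genes described here are Shh, Ptch1, Smo, Boc, Gas1, Sufu, Gli1, Gli2 and Gli3, 9 of the 21951 coding genes of the annotation. N6-methyladenosine (m6A) sites were assigned to them by position: a site counted when it lay inside the annotated interval of a gene, on the strand of that gene. By this rule the 9 genes held 17 of the 79355 sites of the cerebellum library and 52 of the 188295 sites of the cerebrum library. These were 64 different positions, of which 5 were found in both libraries, and all 5 lay in Ptch1. All 64 were an adenosine in the reference genome, none lay in a second coding gene, and no site of either library was found on the opposite strand of a member or within 3000 nt outside it on its own strand.

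Hedgehog signalling is a ligand pathway in which relief of a receptor, rather than its activation, starts the response. Without ligand, Patched-1 keeps the transmembrane protein Smoothened silent and Sufu, kinases and ubiquitin ligases restrain the Gli transcription factors. Sonic hedgehog binds Patched-1 and its co-receptors Boc and Gas1, Smoothened enters the primary cilium, and Gli proteins pass to the nucleus as activators instead of repressors. In the cerebellum, Sonic hedgehog from Purkinje cells drives granule cell progenitors to divide after birth, and in the forebrain the pathway patterns the ventral telencephalon.

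The sites came from GLORI, in which glyoxal and nitrite deaminate unmethylated adenosines so that they are read as G, while m6A is still read as A. Per the study's methods, RNA of both tissues came from 1 female F1r animal at P0 (postnatal day 0), F1r being the offspring of a C57 mother and a PWK father. The GLORI methods do not say whether this RNA was poly(A)+ or ribo-depleted. There was 1 library per tissue, and both shared animal, genotype, sex, age and GLORI treatment. The site lists give positions that passed the authors' minimum methylation rate and read count, but neither of these values, and the depth is therefore unknown. An unlisted position may lack methylation, expression or coverage, and in whole tissue fewer cells of a type cannot be told apart from less RNA per cell. With 1 library per tissue no test between the tissues was possible. Shares are therefore given with 95% Wilson intervals, which cover counting error over sites only and treat neighbouring sites of a gene as independent.

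Of the cerebellar marker list, 5 of 10 genes had a site in the DRACH motif in the cerebellum library and 2 of 10 in the cerebrum library, with 49 and 19 such sites in total. Atoh1, Pax2, Ptf1a and Skor2, defining genes of granule cell progenitors, inhibitory interneurons and Purkinje cells, had none in either library, whereas Barhl1, expressed in the granule lineage, had 11 and 0. Cbln1, a synaptic organiser secreted by granule cells, had 11 and 15, which were 15 of the 19 cerebrum sites of the list. Of the forebrain list, 4 of 12 genes had a DRACH site in the cerebellum library and all 12 in the cerebrum library, with 30 and 216 sites. Of the 30, 22 were in Bcl11b and 6 in Lhx2. Lhx2 on this list, and Mab21l1 on the cerebellar list with 14 and 4, were included as not exclusive to their tissue. The 4 proliferation genes had 0 DRACH sites in the cerebellum library and 17 in the cerebrum library, 14 of them in Mki67. Ccnb1 had none in either library, and Mki67 and Pcna each had 1 cerebellum site outside DRACH. Over all coding genes, 35.0% had a DRACH site in the cerebellum library and 45.2% in the cerebrum library, so most genes had none in either library taken alone. The choroid plexus list had none in either, the vessel list 1 and 4, and the blood list 0 and 1.

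DRACH is the sequence in which m6A is usually placed, with A, G or T at D, A or G at R, the methylated A, C, and A, C or T at H. The sites on which the results turn are shown first. They comprise the 3 Ptch1 positions in DRACH found in both libraries, for each other member with an exonic DRACH site the one nearest its stop codon, and the single Gli3 DRACH site of the cerebellum library. The Ptch1 position in exon 2, the Gas1 and Gli3 sites and the further positions of these genes and of Sufu given below were chosen after their values were seen. The sequences are the GRCm38 reference on the strand that matches the RNA, 5′ to 3′, with T for U and with the 5 bases around the site in capitals.
Shh, 3′ UTR, cerebrum only, chr5:28457475-28457495, minus strand: tattgtgtGAACTgtactcac
Ptch1, 3′ UTR, both libraries, chr13:63511038-63511058, minus strand: tctttccaGAACTgcttgaag
Ptch1, coding part of exon 23, both libraries, chr13:63512004-63512024, minus strand: ccccacctGGACTctggctcc
Ptch1, exon 2, both libraries, chr13:63563717-63563737, minus strand: attcaaaaGAACTgcggcaag
Smo, coding part of exon 12, cerebrum only, chr6:29760102-29760122, plus strand: gggagcctGGACTctagtctc
Boc, 3′ UTR, cerebrum only, chr16:44485578-44485598, minus strand: tcccagaaAGACTatatattg
Gas1, 3′ UTR, cerebrum only, chr13:60175536-60175556, minus strand: agaattcgGGACAccctgcaa
Sufu, 3′ UTR, cerebrum only, chr19:46486425-46486445, plus strand: tttaaataGGACTcattccta
Gli1, coding part of exon 13, cerebrum only, chr10:127331346-127331366, minus strand: acgggacgGAACTtcgatccc
Gli3, coding part of exon 15, cerebrum only, chr13:15726617-15726637, plus strand: attattcaGAACCtttcccac
Gli3, 3′ UTR, cerebellum only, chr13:15729419-15729439, plus strand: gaattaaaGAACTcacttccc

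Ptch1 was the member with most sites in both libraries, and the one whose DRACH sites were more numerous in the cerebellum. The 9 genes together had 8 DRACH sites in the cerebellum library and 24 in the cerebrum library, a cerebrum over cerebellum ratio of 3, against 47305 and 83842 sites and a ratio of 1.77 over all coding genes. Of the 8 cerebellum sites 7 were in Ptch1. Without Ptch1 the members had 1 and 19 DRACH sites. A DRACH site was present in the cerebellum library in 2 of the 9 genes, Ptch1 and Gli3, where 35.0% of all coding genes had one. In the cerebrum library it was present in all 9, where 45.2% of all coding genes had one. In Gli2 the only one was intronic and in repeat-masked sequence. The number of DRACH sites was higher in the cerebrum for 8 of 9 members, close to the 82.7% of all coding genes with a DRACH site in either library, and higher in the cerebellum for 1 of 9, against 7.24%. With exonic DRACH sites only, the number was higher in the cerebrum for 7 members. All members had between 1 and 6 DRACH sites in the cerebrum library. Among all coding genes within that range 40.7% had none in the cerebellum library, and among the members 7 of 9 had none. Shh, Smo, Boc, Gli1 and Gli2 had 1 each in the cerebrum, the low end of the range. Genes were not matched on their counts within it, so these shares are not like for like.

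**Figure D1:**
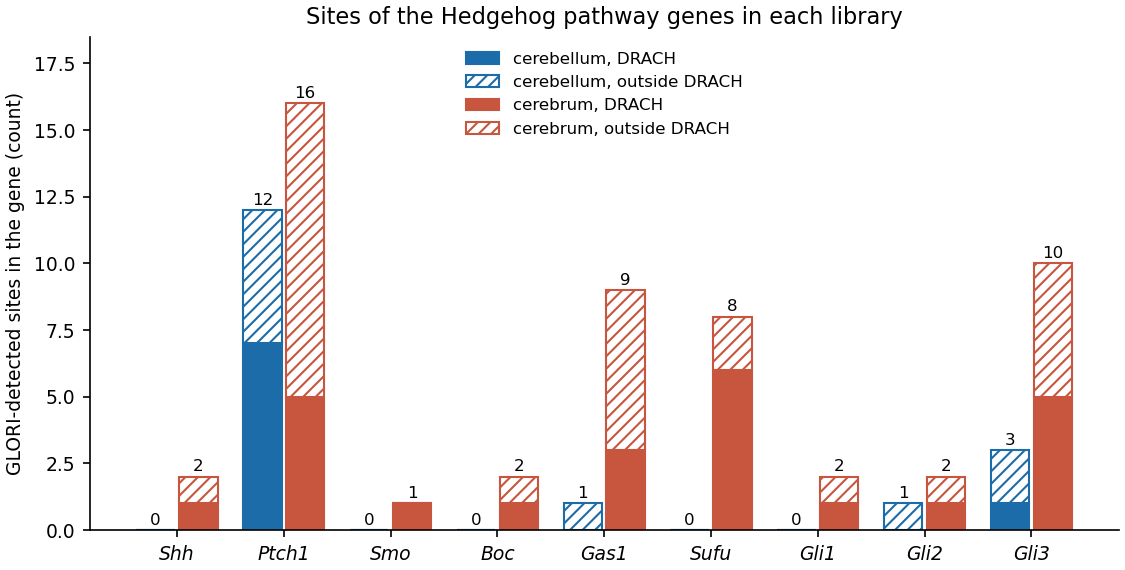
Number of sites (y axis) in each of the 9 genes (x axis) in the cerebellum library (blue) and the cerebrum library (red), with sites in DRACH filled and sites outside it hatched, and the total above each bar. Ptch1 carries 12 of the 17 cerebellum sites, and in the cerebrum the sites spread over all 9 genes.

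The ligand gene Shh (chr5:28456815-28467256, minus strand) had 0 sites in the cerebellum library and 2 in the cerebrum library. Both lay in the 3′ UTR of its last exon, the DRACH site 370 nt after the stop codon and a site outside DRACH, with the 5-mer GGAGT in a repeat-masked stretch, 189 nt after it. Of the 50 exonic DRACH adenosines of Shh, 1 was therefore listed as a site, in the cerebrum.

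Ptch1 (chr13:63508328-63573598, minus strand), which encodes the Hedgehog receptor and is itself a transcriptional target of Gli, had 12 sites in the cerebellum library and 16 in the cerebrum library. Of the 12, 9 lay in the coding sequence and 3 in the 3′ UTR, and 7 were in DRACH. Of the 16, 8 lay in the coding sequence, 3 in the 3′ UTR, 4 in exons of other transcripts of the gene and 1 in an intron, and 5 were in DRACH. The gene thus had more sites in the cerebrum but more DRACH sites in the cerebellum, by 2. An excess of this size or larger in the cerebellum was found in 244 of 10231 coding genes with a DRACH site, or 2.38%. Ptch1 was singled out among the members by its number of sites, so this share gives its rank and is not a test. Of its 158 exonic DRACH adenosines, the cerebellum list held 7 (4.43%, interval 2.16 to 8.86) and the cerebrum list 4 (2.53%, interval 0.989 to 6.33), and these intervals overlapped.

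The 3 Ptch1 DRACH positions common to both libraries spanned the transcript. One lay 485 nt into the 3′ UTR, one in the coding part of the last exon, 481 nt before the stop codon, and one in exon 2, 247 nt after the start of the coding sequence. The cerebellum library added an AGACT site in exon 2, 35 nt from the shared one, a GGACA site in exon 15, an AGACC site 396 nt before the stop codon and a GAACT site 2958 nt after it. The cerebrum library added a GGACT site 2723 nt after the stop codon and a TAACA site in an exon of another transcript. The remaining shared pair lay outside DRACH in exon 12, 6 nt apart, and was listed in both libraries. An intron of Gli3 held another pair 6 nt apart, listed in the cerebellum only. Both pairs are shown because each listed adenosine is followed by T and C, with the listed adenosines in capitals.
Ptch1, exon 12, both libraries, chr13:63539252-63539278, minus strand: ggccgcattgAtccctAtccctgccct
Gli3, intron, cerebellum only, chr13:15484375-15484401, plus strand: gataaattttAtctccAtcctttcaat

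**Figure D2:**
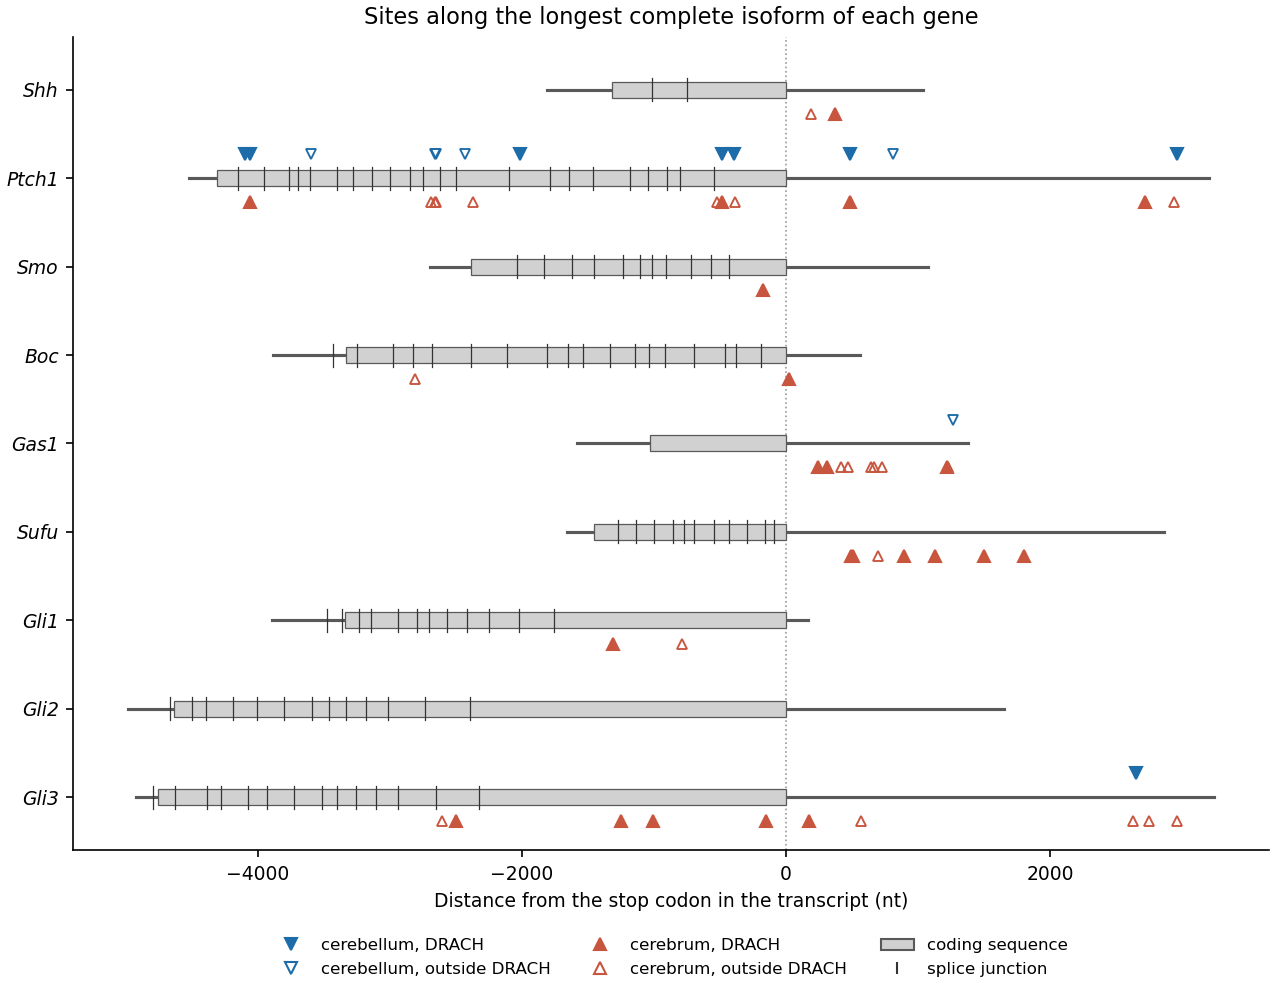
Position of the sites along the longest isoform of each gene that has a complete coding sequence and both UTRs, in nt from the stop codon (x axis), with the coding sequence as a grey box, splice junctions as vertical lines, cerebellum sites above and cerebrum sites below each transcript, filled where in DRACH. Introns and exons of other isoforms are not drawn, so Gli2 shows no site. Cerebellum DRACH sites appear in Ptch1 and, at 2648 nt, in Gli3, while cerebrum DRACH sites fall mostly to the right of the last junction.

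The receptor partners had few sites in the cerebellum. Smo (chr6:29735503-29761365, plus strand), the transducer silenced by Patched-1, had 0 in the cerebellum and 1 in the cerebrum, a DRACH site in its last exon 173 nt before the stop codon. Boc (chr16:44485049-44558897, minus strand), a membrane co-receptor, had 0 and 2. Its DRACH site lay 24 nt after the stop codon, the closest to a stop codon among the members, and the other, with the 5-mer CCATC, in exon 5. Gas1 (chr13:60174405-60177365, minus strand), a co-receptor anchored to the membrane by a lipid and encoded by 1 exon, had 1 and 9. All 10 lay in its 3′ UTR. The cerebrum DRACH sites lay 241, 311 and 1220 nt after the stop codon and were 3 of its 43 exonic DRACH adenosines (6.98%, interval 2.4 to 18.6). The single cerebellum site, with the 5-mer ACATT, lay outside DRACH at 1263 nt.

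Sufu (chr19:46396896-46488804, plus strand), which binds and restrains Gli proteins, had 8 sites, all from the cerebrum library, and 0 from the cerebellum library. It had the most cerebrum DRACH sites of the 9 genes. All 6 lay in the 3′ UTR of the longest isoform, between 491 and 1802 nt after the stop codon, and none of the 40 DRACH adenosines of its coding sequence was listed. As a share of its 142 exonic DRACH adenosines, 4.23% (interval 1.95 to 8.91) were listed in the cerebrum and 0% (interval 0 to 2.63) in the cerebellum. A further site outside DRACH lay in the 3′ UTR and another in an exon of a different transcript.

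The 3 Gli genes, paralogs that encode the zinc finger effectors of the pathway, differed in their sites. Gli1 (chr10:127329882-127341974, minus strand), the activator whose transcription is the usual readout of the pathway, had 0 cerebellum and 2 cerebrum sites. These lay in the coding part of exon 13, its last, 1309 nt before the stop codon in DRACH and 786 nt before it in a TCACA 5-mer. Gli2 (chr1:118834132-119053619, minus strand), the main activator, had 1 and 2 sites. All 3 were intronic and in repeat-masked sequence, and 1 of them, in the cerebrum, was in DRACH with the 5-mer TGACC. None of the 136 exonic DRACH adenosines of Gli2 was listed in either library (interval 0 to 2.75%). Gli3 (chr13:15463235-15730026, plus strand), the main repressor, had 3 and 10. In the cerebrum 5 of the 10 were in DRACH, at 2500, 1247, 1005 and 154 nt before the stop codon and at 176 nt after it. In the cerebellum 1 of the 3 was in DRACH, 2648 nt into the 3′ UTR, and no Gli3 position was listed in both libraries.

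The share of the members' exonic DRACH adenosines that was listed lay below that of coding genes in general in both libraries. Pooled over the 9 genes, 8 of 926 were listed in the cerebellum (0.864%, interval 0.438 to 1.7) and 22 of 926 in the cerebrum (2.38%, interval 1.57 to 3.57), against 2.89% and 4.94% over all coding genes. Restricted to coding genes with a DRACH site in either library, the values were 4.81% and 8.21%. The members' median per gene was 0% for the cerebellum and 2% for the cerebrum library, against 2.61% and 5.84% over those 10231 genes. Without Ptch1 the cerebellum share of the members was 0.13%. Expression was not measured in these files, so its part in these shares was not tested. The few proliferation genes listed had no DRACH site in the cerebellum library, as was the case for most coding genes. Any relation to the low cerebellum count of the members was not tested.

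**Figure D3:**
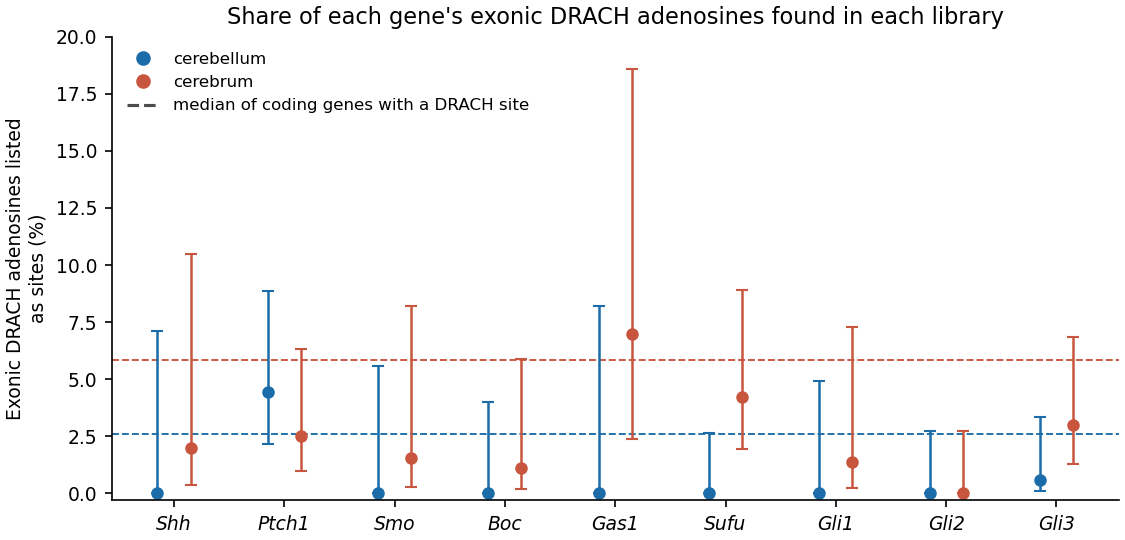
Share of the exonic DRACH adenosines of each gene listed as sites (y axis, percent) in the cerebellum (blue) and the cerebrum (red), with 95% Wilson intervals that cover counting error only. Dashed lines give the median over coding genes with a DRACH site, 2.61% in the cerebellum and 5.84% in the cerebrum. The Ptch1 cerebellum point and the Gas1 cerebrum point lie above the line of their library.

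Few sites of the 9 genes were common to both libraries. In the cerebellum 3 of 8 DRACH sites were also listed in the cerebrum (37.5%, interval 13.7 to 69.4), against 81.5% of the DRACH sites of all coding genes. In the cerebrum 3 of 24 were also listed in the cerebellum (12.5%, interval 4.34 to 31.0), against 46.0%. Both general values lay outside the members' intervals, and without Ptch1 no site was common. Outside DRACH the members' values were 22.2% (interval 6.32 to 54.7) and 7.14% (interval 1.98 to 22.6), with the general values of 26.6% and 7.92% inside the intervals.

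Most DRACH sites of the members lay in last exons, as did those of coding genes in general. Of the 22 cerebrum DRACH sites on coding transcripts, 20 were in the last exon (90.9%, interval 72.2 to 97.5). The value for all coding genes, 74.4%, lay inside this interval. The 20 include 3 sites of Gas1, whose only exon was counted as a last exon. The others were in exon 14 of Gli3 and exon 2 of Ptch1. Sufu held 6 of the 20, and their placement can depend on the isoform chosen. Over all members, the isoforms with the longest coding sequence covered 37 of the 44 cerebrum sites on coding transcripts. They covered 16 of the 22 listed DRACH adenosines. In the cerebellum 5 of 8 were in the last exon (62.5%, interval 30.6 to 86.3), with the general value of 74.9% inside the interval. The longest isoforms of the members held 479 DRACH adenosines in last exons and 345 in internal exons. Of the first, 4.18% (interval 2.72 to 6.36) were listed in the cerebrum, and of the second 0.58% (interval 0.159 to 2.09), with 6.99% and 3.06% over all coding genes. For the cerebellum these shares were 1.04% (interval 0.447 to 2.42) and 0.87% (interval 0.296 to 2.53), with 4.13% and 1.78% over all coding genes. The 4 internal exon sites over both libraries lay 53, 85, 88 and 148 nt from the nearest splice junction, in exons of 193 to 328 nt. The 3′ UTR held 14 of the 22 cerebrum DRACH sites (63.6%, interval 43.0 to 80.3) and 3 of the 8 cerebellum DRACH sites (37.5%, interval 13.7 to 69.4), with the general values of 56.1% and 57.6% inside both intervals. Within 200 nt of the stop codon lay 0 of 14 cerebellum sites and 5 of 44 cerebrum sites on coding transcripts (0%, interval 0 to 21.5, and 11.4%, interval 4.95 to 24.0), with the general values of 20.4% and 19.0% inside both intervals. Of the 22 cerebrum DRACH sites alone, 4 lay there (18.2%). No member site lay in a 5′ UTR (interval 0 to 21.5 in the cerebellum and 0 to 8.03 in the cerebrum). The general values, 2.8% and 3.22%, were low and inside these intervals.

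The 5-mer GAACT led the members' DRACH sites. It accounted for 11 of the 29 different DRACH positions, in Shh, Ptch1, Sufu, Gli1 and Gli3, followed by GGACT with 6 in 5 genes. Its share was 50% of the cerebellum DRACH sites (4 of 8, interval 21.5 to 78.5) and 37.5% of the cerebrum DRACH sites (9 of 24, interval 21.2 to 57.3), against 13.3% and 12.6% over all coding genes. The members did not hold more of this sequence: it made up 3.78% of their exonic DRACH adenosines, 35 of 926, and 5.56% of those of all coding genes. Of the 35, 4 were listed in the cerebellum (11.4%, interval 4.54 to 26.0, against 6.83% for all coding genes) and 9 in the cerebrum (25.7%, interval 14.2 to 42.1, against 11.1%). Of the 79 GGACT adenosines 1 was listed in the cerebellum (1.27%, interval 0.224 to 6.83, against 7.2%) and 6 in the cerebrum (7.59%, interval 3.53 to 15.6, against 12.7%). Of the other 812 DRACH adenosines 0.369% (interval 0.126 to 1.08) and 0.862% (interval 0.418 to 1.77) were listed, against 2.39% and 4.09%. The 5-mer was singled out after its count was seen, and sites of one gene are not independent. The 3 DRACH positions shared between libraries, in GAACT or GGACT, were counted in each.

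**Figure D4:**
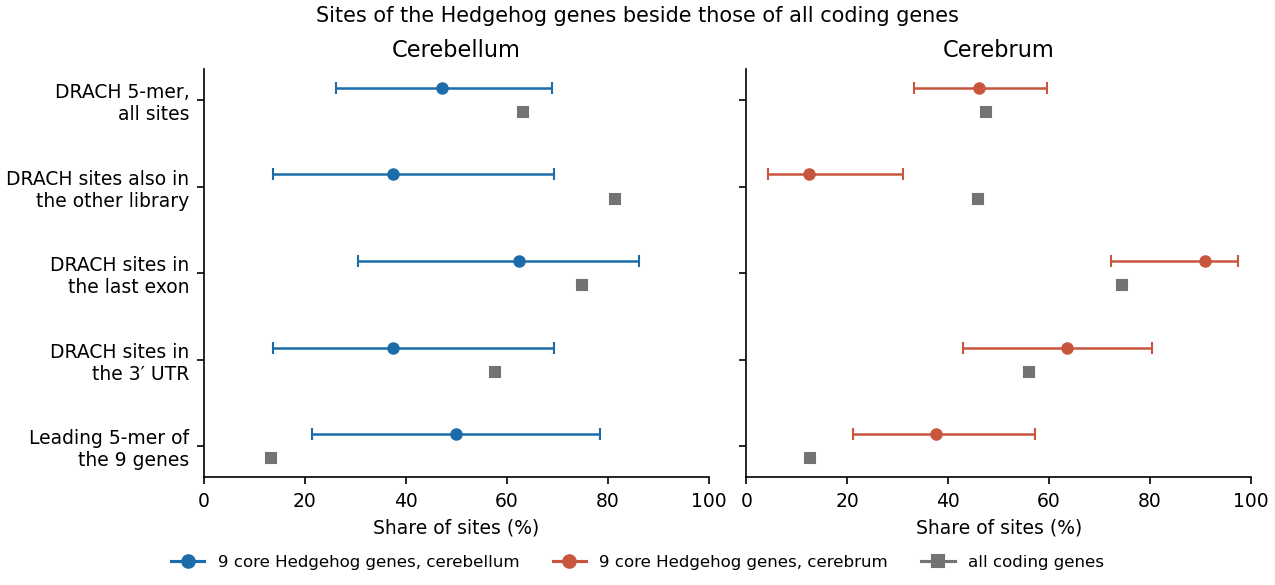
Shares of sites in percent (x axis) for the 9 genes (circles, cerebellum blue, cerebrum red) and all coding genes (grey squares), with 95% Wilson intervals that cover counting error only. From the top the rows give sites in DRACH, DRACH sites also listed in the other library, in the last exon and in the 3′ UTR, and DRACH sites with the 5-mer GAACT. The general value lies outside the members' interval for sharing and for GAACT in both libraries, and inside it for the other rows. GAACT was singled out after its count was seen, so its row is not a test. The libraries are not independent here, since the 3 shared DRACH positions are counted in each. Of the 8 cerebellum DRACH sites 7 are in Ptch1.

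Outside DRACH, 9 cerebellum and 28 cerebrum sites remained, 35 different positions with 31 different 5-mers. The DRACH share of all member sites was 47.1% in the cerebellum (interval 26.2 to 69.0) and 46.2% in the cerebrum (interval 33.3 to 59.5), against 63.2% and 47.5% for all coding genes. Of the 35 positions 14 were 1 base from DRACH, and 7 had T and C after the adenosine. Sites 1 base from DRACH made up 44.4% of the cerebellum and 39.3% of the cerebrum sites outside DRACH. These shares were close to the 46.7% and 40.7% of all coding genes. No general share was counted for sites followed by T and C. Repeat-masked sequence held 4 of the 6 intronic sites of the members, 4 of 31 in 3′ UTRs, 1 of 5 in exons of other transcripts and 1 of 22 in coding sequences.

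Of 50 other Hedgehog pathway genes, 31 had a DRACH site in the cerebellum library, 40 in the cerebrum library and 10 in neither. Over all coding genes, 35.0% had one in the cerebellum library and 45.2% in the cerebrum library. There were 234 and 418 sites in total, a cerebrum over cerebellum ratio of 1.79, against 1.77 over all coding genes. Among the 40 genes with a DRACH site in either library, 35 had more in the cerebrum, 1 had more in the cerebellum and 4 had equally many. Over all coding genes with such a site, 82.7% had more in the cerebrum and 7.24% more in the cerebellum. The lean to the cerebrum was thus general and not particular to these genes. The 1 gene was Arrb2, an arrestin that takes part in the ciliary transport of Smoothened, with 2 cerebellum sites and 1 cerebrum site.

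By role, the kinases and ubiquitin ligases that act on Gli had a DRACH site in 12 of 13 genes in each library. Dyrk2, a kinase of Gli2, had 25 in the cerebellum and 35 in the cerebrum. The casein kinases Csnk1a1 and Csnk1d, which phosphorylate Gli proteins, had 22 and 27 and 8 and 16. The ubiquitin ligase components Cul1 and Spop, which act on Gli processing and degradation, had 13 and 17 and 11 and 15. Of 8 genes for ligands and their processing, 4 had a site in each library. Disp2, a paralog of the ligand release protein Dispatched, had the most of all, 39 in each, whereas the ligand genes Ihh and Dhh had no DRACH site. Of 7 receptors and antagonists, 2 had a DRACH site in the cerebellum and 5 in the cerebrum. Hhip, a ligand antagonist named after its values were seen, as Ihh and Dhh were, had 0 in both. Of 16 cilium and transduction genes, 9 and 13 had one. The kinesin subunit Kif3b, which carries cargo along the cilium, had 19 and 30, and the motor Dync2h1, which returns it, 6 and 17. The 6 target genes had 18 and 66, a ratio of 3.67. Ptch1, also a target, was counted with the members and not among these 6, and had 7 and 5. Bcl2, a survival factor, had 6 and 18. The cell cycle genes Mycn, Ccnd1 and Ccnd2, which Sonic hedgehog induces in granule cell progenitors and which were singled out after their values were seen, had 5 and 15, 0 and 2, and 0 and 13. The remaining targets, Bmi1 and Sfrp1, also named after their values were seen, had 5 and 8, and 2 and 10.

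**Figure D5:**
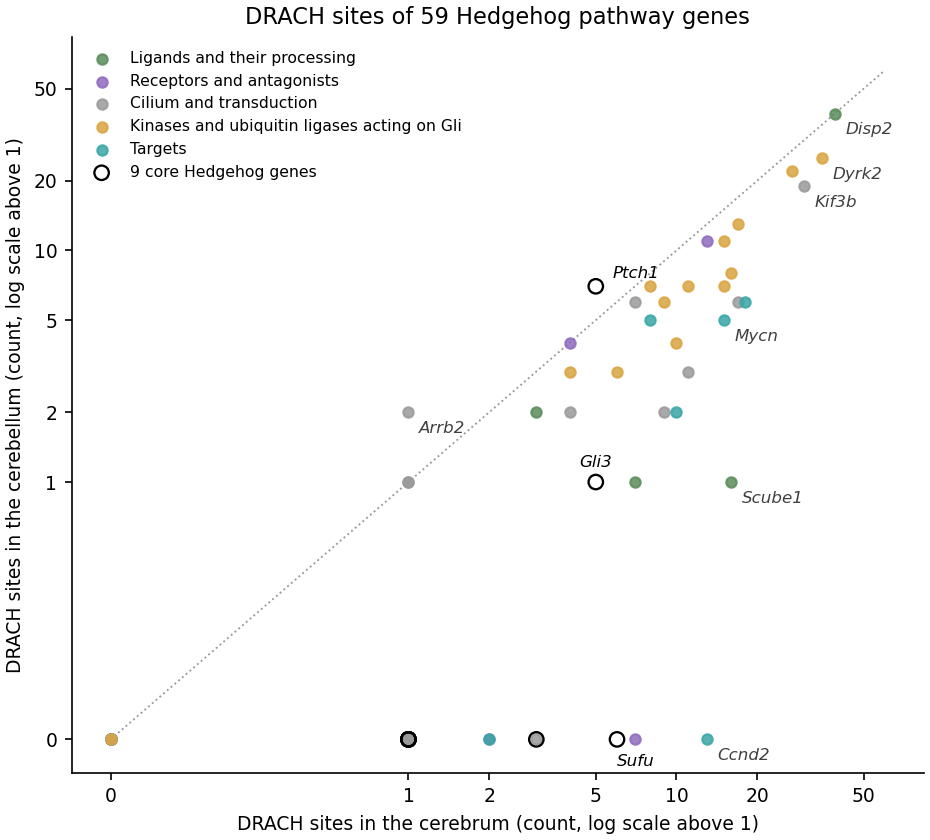
DRACH sites in the cerebrum (x axis) and in the cerebellum (y axis) of 50 other Hedgehog pathway genes coloured by role and of the 9 core genes (open circles), both axes logarithmic above 1, with equal counts on the dotted line. Ptch1 and Arrb2 lie above the line, Disp2 on it with 39 in each library, and Sufu and Ccnd2 at 0 in the cerebellum. Genes with the same pair of counts overlap.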

How the data were processed

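1 cerebellum and 1 cerebrum RNA sample underwent GLORI. The authors mapped reads to mm10 and to a copy of it carrying PWK bases, ran GLORI-tools on both, took the union and filtered it by methylation rate and read count. The deposited files list where each retained site lies and on which strand, so their unit is a genomic position, without rates, counts or depth, and no test was run.

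Positions were looked up in GRCm38, the assembly that mm10 names, and in GENCODE release M21, which is not the release named in the study. A site was placed on the longest isoform covering it that has an intact reading frame between 2 UTRs, otherwise on another exon or an intron. DRACH was read from the genomic 5-mer. Exonic DRACH adenosines were counted over the union of exons of coding transcripts. This placement can move sites between regions.

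The 9 members and the other gene lists were chosen with earlier results of these data known. Named were all members, the 10 other pathway genes with most DRACH sites and those with more in the cerebellum (some are not reported here), and single sites by motif, sharing and distance to the stop codon. Alternatives covered the isoform, motif, window, matching and the leading gene. Known positions were simulated as a check, and of 1000 sites placed on chromosome 11 transcripts 100% came back with their gene, motif and region. The check placed sites on the same longest isoforms that the placement tries first and left out sites next to exon ends. It could therefore not show errors of isoform choice or at splice junctions. Python 3.11.15, numpy 2.4.6, pandas 2.3.3, pysam 0.24.0, samtools 1.23.1 and matplotlib 3.10.9 were used.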

Additional observations from a re-analysis of the deposited data

How the results depend on the processing

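Of 50 alternative settings computed, 37 left the value within its 95% Wilson interval or, for a count, within 1.5 times, and 13 did not. Leaving out Ptch1 gave 6 of the 13. In the cerebellum it lowered the number of member sites from 17 to 5, the DRACH share from 47.1% to 20%, the share also found in the cerebrum from 29.4% to 0% and the share of exonic DRACH adenosines listed from 0.864% to 0.13%, and it raised the 3′ UTR share from 35.7% to 100%, of 2 sites. In the cerebrum it lowered the share also found in the cerebellum from 9.62% to 0%. Keeping DRACH sites alone left 8 of 17 and 24 of 52 sites. Keeping the 5 sites found in both libraries, all in Ptch1, gave a DRACH share of 60% against 46.2% and a 3′ UTR share of 20% against 61.4% in the cerebrum. In 3′ UTRs alone, 4.42% of DRACH adenosines were listed in the cerebrum, against 2.38% in all exons. The excess of Ptch1 in the cerebellum was lost when all sites were counted, and at a ratio of at least 1.5, both of which left 0 members with more in the cerebellum. The causes were not tested beyond what the fewer sites of each setting show. No paired analysis was possible because each tissue had 1 library. Depth is unknown, so a position missing from a list sets no limit on its methylation.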
